A study of Mus musculus with 2 samples.

Results

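The 1917 regions described here are open-chromatin peaks of R848-stimulated mouse macrophages that were called in untreated cells too. Their summits lay more than 100 kb from both ends of every protein-coding gene. They came from 36721 R848 peaks on chromosomes 1 to 19. Of those, 8401 lay beyond 100 kb and 11214 overlapped an untreated peak by at least 1 bp, and the shared far peaks met both conditions. The regions were thus chosen by presence in both peak lists and by distance, which are given as descriptions. Peak strength was not used for the choice, although a peak had to be strong enough to be called in both lists.

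ATAC-seq, which marks open DNA by transposase insertion, had been run on wild-type bone marrow-derived macrophages (BMDMs) cultured with 20 ng/ml M-CSF. The R848 group was 1 library, made after 2 h with 100 ng/ml of R848, and the untreated group was 1 library of cells of the same genotype at 0 h. R848 (resiquimod) is a small-molecule agonist of Toll-like receptor 7. Neither group had a replicate, so no difference below was tested. The sources used here do not state the strain, sex or age of the mice. An R848 peak summit lay within 1 kb of a gene end for 7 of 10 macrophage markers, and an untreated one for 4 of 10, among them Lyz2, Cd68, Itgam and Spi1. Mertk, Fcgr1 and Cd14 had none in either list. Peaks lay at 3 of 7 neutrophil markers in the R848 list and 2 of 7 in the untreated list, at 1 of 8 T and NK cell markers in each, and at 0 of 5 B cell markers and 0 of 4 erythroid markers in both. For stromal and endothelial markers the counts were 1 of 6 in the R848 list and 0 of 6 in the untreated list.

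Open sites far from promoters are mostly enhancers and insulator sites. Enhancers bind transcription factors and can act on a promoter over long distances by looping. In macrophages most enhancers are opened by the lineage factor PU.1 together with C/EBP and AP-1 proteins before any stimulus, and Toll-like receptor signals then bring NF-kB and more AP-1 to them. Long stretches without genes often flank regulators of development and adhesion genes of the nervous system. They also hold tandem satellite repeats, where reads from many copies can stack on few assembled ones.

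The name "far from any gene" held only for protein-coding gene ends. Of the 1917 shared far peaks, 365 (19%, 95% Wilson interval 17.3 to 20.9%) had their summit inside a very long protein-coding gene, and 242 (12.6%, 11.2 to 14.2%) lay inside or within 1 kb of a non-coding RefSeq gene. The remaining 1332 (69.5%) lay in neither. Among the 6484 far R848 peaks without an untreated partner, the shares were 22.5% (21.5 to 23.6%) inside a protein-coding gene and 14.3% (13.5 to 15.2%) at a non-coding gene. When ends of RefSeq genes of any type counted, 565 of the 1917 peaks remained.

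Start sites of transcripts were rare but present. Only 10 shared far peaks overlapped one of the 32851 RefSeq promoter windows (250 bases before to 50 after a start, GRCm38.p6), and in 6 of them the summit fell inside the window. The 10 promoters belonged to the non-coding RNAs Kcnq1ot1, A230004M16Rik, Dubr, Gm26901, Gm29998, Gm30926, Gm45805 and LOC115486907, and to internal starts of the protein-coding genes Nav2 and Specc1. Of the windows with the summit inside, 4 are shown because they span the range of CpG content. CG pairs are in capitals, and each sequence reads 5′ to 3′ on the strand of its gene.
Kcnq1ot1, minus strand, chr7:143296498-143296797: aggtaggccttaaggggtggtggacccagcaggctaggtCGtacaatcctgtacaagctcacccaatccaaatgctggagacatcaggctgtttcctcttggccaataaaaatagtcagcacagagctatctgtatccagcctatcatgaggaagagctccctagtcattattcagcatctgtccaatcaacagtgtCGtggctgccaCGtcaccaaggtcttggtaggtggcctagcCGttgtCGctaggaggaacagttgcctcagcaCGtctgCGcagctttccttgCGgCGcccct
A230004M16Rik, plus strand, chr11:41710094-41710393: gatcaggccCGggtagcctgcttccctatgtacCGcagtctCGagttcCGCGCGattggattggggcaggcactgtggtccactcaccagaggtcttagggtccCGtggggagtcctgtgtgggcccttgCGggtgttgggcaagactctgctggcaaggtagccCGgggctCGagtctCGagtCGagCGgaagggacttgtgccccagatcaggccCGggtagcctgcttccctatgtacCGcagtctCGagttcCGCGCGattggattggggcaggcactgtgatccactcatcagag
Nav2, plus strand, chr7:49245939-49246238: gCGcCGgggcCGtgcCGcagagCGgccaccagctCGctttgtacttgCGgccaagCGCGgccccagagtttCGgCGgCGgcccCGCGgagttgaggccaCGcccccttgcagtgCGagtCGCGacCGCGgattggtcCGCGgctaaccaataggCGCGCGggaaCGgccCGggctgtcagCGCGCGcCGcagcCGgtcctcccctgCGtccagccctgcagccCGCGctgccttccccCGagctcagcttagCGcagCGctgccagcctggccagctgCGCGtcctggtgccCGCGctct
LOC115486907, minus strand, chr8:127441236-127441535: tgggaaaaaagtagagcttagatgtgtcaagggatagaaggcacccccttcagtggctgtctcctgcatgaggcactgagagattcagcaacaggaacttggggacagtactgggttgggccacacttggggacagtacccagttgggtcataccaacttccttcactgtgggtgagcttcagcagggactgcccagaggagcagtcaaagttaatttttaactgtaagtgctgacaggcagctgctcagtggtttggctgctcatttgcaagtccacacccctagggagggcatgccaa

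The Nav2 window held 42 CG pairs, a number reached by 3.03% of all promoter windows, against a median of 7. The A230004M16Rik window held 19, the Kcnq1ot1 window 9 and the LOC115486907 window none. Of 7 motifs searched on both strands, the C/EBP letters TTGCNNAA were found in the windows of A230004M16Rik, Gm45805 and LOC115486907 (10.8% of all windows hold them). The PU.1 letters GAGGAAGT were found at Gm30926 (3.20% of windows) and the CTCF motif at Gm26901 (2.44%). The letters TGANTCA (AP-1, 7.81% of windows), TGTGGTT (RUNX, 5.27%) and the NF-kB (1.47%) and IRF (3.44%) motifs were in none of the 10.

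Levels at these starts were read as tags, the pileup of sequencing tags at the summit recovered from the deposited fold and p of each peak. Kcnq1ot1, the paternally expressed antisense RNA that silences its imprinted neighbours, starts inside Kcnq1, and its peak held 14 tags in the R848 library against 8 tags in the untreated library. The peak at LOC115486907, inside the polarity gene Pard3, held 28 R848 tags against 11 untreated tags. At the internal start of Nav2, a gene of axon outgrowth, the peak held 8 R848 tags against 7 untreated tags. For each peak the ratio of R848 to untreated tags is given relative to the median of all 11214 shared pairs, which was 1.33, because depth was not given. On that scale, as log2, the 10 promoter peaks ranged between -0.42 and 1.00 with a median of 0.44. Of the 10, 1 (Gm45805) was at least 2 times higher and 0 were at least 2 times lower, where 9.56% and 14.1% of all shared pairs, and 1.51% and 32.9% of all shared far peaks, were.

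Shared far peaks were weaker than shared peaks nearer to genes, but of middling strength within the R848 list. They had a median fold percentile of 49.5 among all R848 autosomal peaks, whose median fold was 3.45. Far R848 peaks without a partner had a median fold of 3.39. The shared far peaks are described next. Their median fold enrichment over local background was 3.41 in the R848 list, with quartiles of 2.97 and 4.24, against 5.09 (3.81 and 7.20) for the 9297 shared peaks within 100 kb of a gene end. The median peak held 8 R848 tags and 10 untreated tags, and 7.98% (6.85 to 9.28%) held at least 20 R848 tags, against 24.6% (23.8 to 25.5%) of shared peaks nearer to genes. In the R848 list, 47.6% of shared far peaks had a q above 0.05, against 18.0% of the nearer ones. Their distance to the nearest protein-coding gene end had a median of 262812 bp and reached 2137657 bp.

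Distance from genes went with fewer R848 peaks but not with fewer untreated ones. The untreated list was longer, at 77060 peaks on all chromosomes against 37725 in the R848 list, and densities were not compared at equal list lengths. The sequence beyond 100 kb made up 35.7% of the autosomal span and held 9.78 R848 peaks and 29.6 untreated peaks per Mb. Within 100 kb of gene ends there were 18.3 R848 and 28.1 untreated peaks per Mb. Shared peaks numbered 2.23 per Mb in the far sequence and 6.02 per Mb nearer to genes. An untreated partner was found for 22.8% (21.9 to 23.7%) of far R848 peaks and for 32.8% (32.3 to 33.4%) of nearer ones. Nearer peaks reweighted to the strength classes of the far ones gave 21.2%. In the weakest of 10 classes, 20.6% of far and 14.8% of nearer R848 peaks had a partner, and in the strongest 80.9% and 87.8%.

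**Figure D1:**
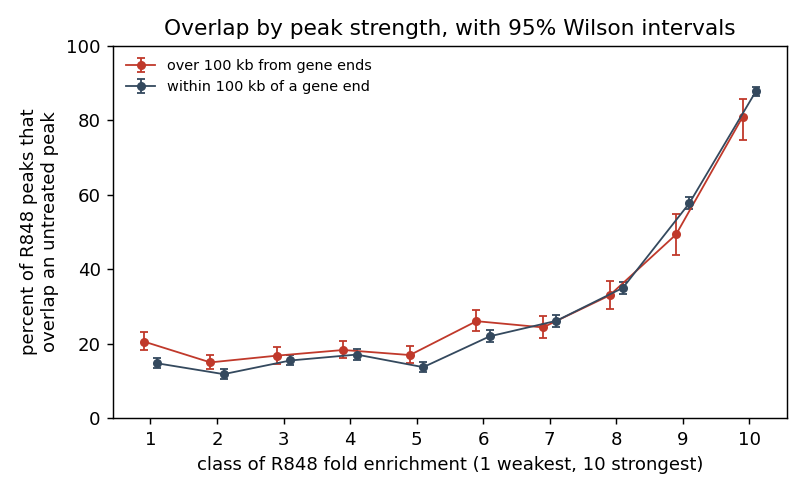
Percent of R848 peaks that overlap an untreated peak (y axis) in 10 classes of R848 fold enrichment (x axis), for peaks over 100 kb from gene ends (red) and within 100 kb (dark blue), with 95% Wilson intervals. Both curves climb with strength, to 80.9% of far and 87.8% of nearer peaks in the strongest class, and they differ less than the pooled 22.8% and 32.8%.

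Relative to the median shared pair, shared far peaks were low in the R848 library. The median log2 ratio was -0.74 (quartiles -1.09 and -0.31), against 0.17 (-0.42 and 0.64) for the nearer shared peaks. At least 2 times lower were 631 shared far peaks, or 32.9% (30.8 to 35.1%), where 14.1% of all shared pairs were. Only 29, or 1.51% (1.06 to 2.16%), were at least 2 times higher, where 9.56% of all shared pairs were. Since the smallest untreated pileup was 4 tags, a peak needed at least 11 R848 tags to be called higher. The third quartile was 10 R848 tags at shared far peaks and 19 at nearer ones, so most far peaks could not be called higher. A lower call needed at least 8 untreated tags, the first quartile of shared far peaks. By distance, the share of lower peaks was 29.2% for 722 peaks at 100 to 200 kb, 36.8% for 756 peaks at 200 to 500 kb, 32.2% for 307 peaks at 500 to 1000 kb and 32.6% for 132 peaks farther out. Higher peaks lay nearer, with 21 of the 29 at 100 to 200 kb. Inside protein-coding genes 31.0% of shared far peaks were lower, and outside them 33.4% were.

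The difference was present at matched strength, except in the weakest class. In classes of summed tags, the nearer shared peaks reweighted to the far ones gave 10.4% lower and 7.32% higher. Among pairs whose scaled tags summed to over 20 and up to 30, the median log2 ratio was -1.05 at 244 far peaks and 0.37 at 2273 nearer ones. At sums up to 10 it was -0.15 at both 50 far and 129 nearer peaks. At sums over 60 it was -1.05 at 94 far and -0.44 at 245 nearer peaks, with 54.3% and 32.2% lower. This class held most of the 52 far peaks described below, whose local background was at least 10 times genome-wide in either library. Of those 52, 31 were called lower, and the class was not read without them. The untreated local background moved with the result. It had a median of 1.62 tags at shared far peaks and 0.968 tags, the genome-wide level, at nearer shared peaks, while the R848 local background was 1.36 tags at far peaks, which is its genome-wide level, and 1.54 tags at nearer ones. Far peaks were also narrower in the R848 list (median 289 bp) than in the untreated list (378 bp), whereas nearer shared peaks measured 428 bp in the R848 list and 361 bp in the untreated list. With the deposited folds, which divide by local background, in place of tags, the median was -0.27, with 7.20% of far peaks and 3.85% of all shared pairs at least 2 times lower. The part of the background in the result was not tested.

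**Figure D2:**
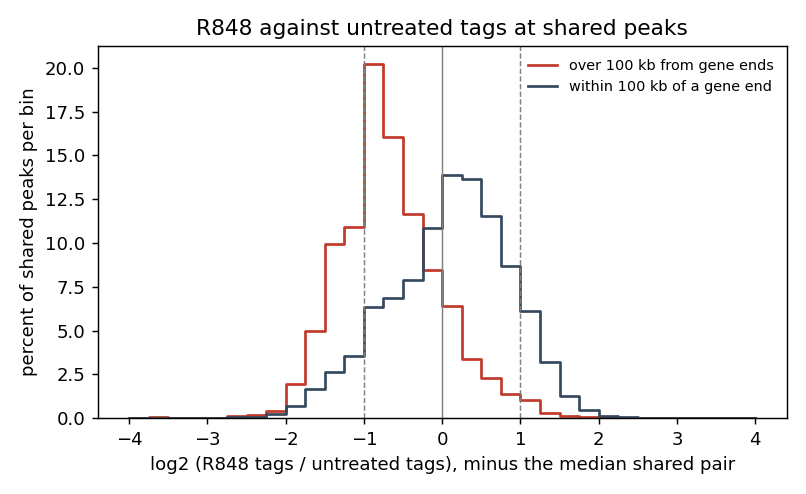
Distribution of the log2 ratio of R848 to untreated tags minus the median shared pair (x axis, bins of 0.25) as percent of shared peaks (y axis), for 1917 peaks over 100 kb from gene ends (red) and 9297 within 100 kb (dark blue). Dashed lines mark a factor of 2. The far peaks centre at -0.74 and the nearer ones at 0.17.

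**Figure D3:**
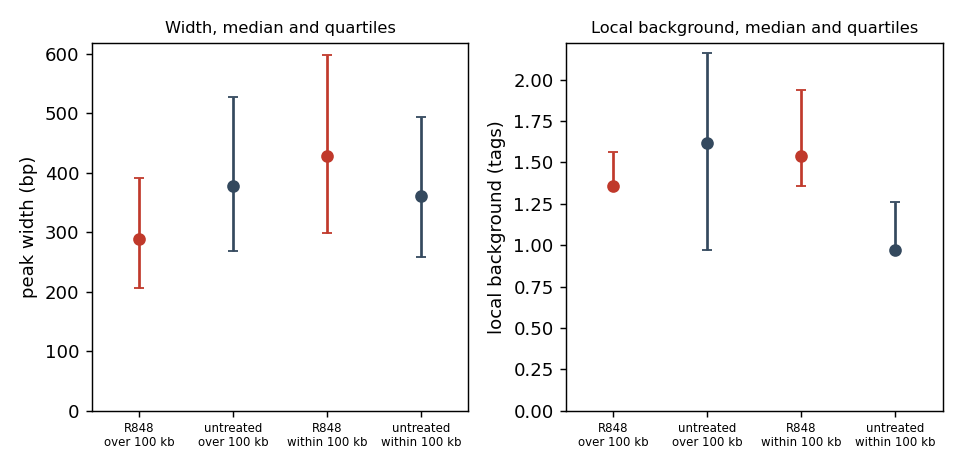
Peak width in bp (left) and local background in tags (right), as medians with quartiles, for shared peaks over 100 kb from gene ends and within 100 kb, in the R848 (red) and untreated (dark blue) lists. Far peaks are narrower in the R848 list (289 bp) than in the untreated list (378 bp), and their untreated background (1.62 tags) lies above the genome-wide 0.968.

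The 29 higher peaks lay nearest to 29 different genes. They held 11 to 40 R848 tags and 4 to 13 untreated tags, with a median width of 517 bp in the R848 list and 284 bp in the untreated list. On the deposited folds 7 of the 29 were at least 2 times higher, those nearest Id2, Nfkbiz, Ctnnb1, Maml2, Htr1b, Msc and Hmga2. The largest ratio was 118071 bp from Id2, which encodes an inhibitor of helix-loop-helix factors, on chromosome 12 from 25213859 to 25214362. It held 25 R848 tags and 5 untreated tags, 3.75 times the median pair (95% interval 1.41 to 12.5, counting error only). Its R848 summit, at 25214164, lay outside the untreated peak (25213809 to 25214008), so these tags were read at different positions. A peak 112671 bp from Nfkbiz, the gene of the inducible nuclear NF-kB regulator IkB-zeta, held 20 R848 tags and 5 untreated tags, a ratio of 3.0 (1.09 to 10.2), on chromosome 16 from 55698361 to 55699171. At 156592 bp from Ctnnb1, which encodes beta-catenin, 28 R848 tags stood against 7 untreated tags, also a ratio of 3.0 (1.28 to 8.14). Next came peaks inside Maml2, a Notch coactivator gene, and 403142 bp from the serotonin receptor gene Htr1b, each with 18 R848 tags and 5 untreated tags and a ratio of 2.70 (0.966 to 9.30). The smallest peak of the untreated list held 4 tags, and these held 5 to 7.

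Others among the 29 lay nearest Jun, the AP-1 subunit gene (23 R848 tags against 8 untreated tags), and Dusp6, which encodes a phosphatase that turns off ERK (20 against 7). Further ones lay nearest the anti-proliferative gene Btg1 (11 against 4) and the transcriptional corepressor gene Irf2bp2 (16 against 6), whose peak overlapped the Gm45805 promoter. The highest tag count of the set, 40 R848 tags against 13 untreated tags, was 104470 bp from the zinc finger gene Zfat. A peak 1253779 bp from Zeb2 held 24 R848 tags against 8 untreated tags. On the deposited folds none of these 6 was at least 2 times higher, with log2 ratios of 0.89 for Jun, 0.87 for Dusp6, 0.79 for Btg1, 0.72 for Irf2bp2, 0.98 for Zfat and 0.85 for Zeb2. Of the 29, 8 lay inside a protein-coding gene, among them Maml2, Hivep3, Oxr1, Tbc1d5, Plcb1 and Rapgef2.

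**Figure D4:**
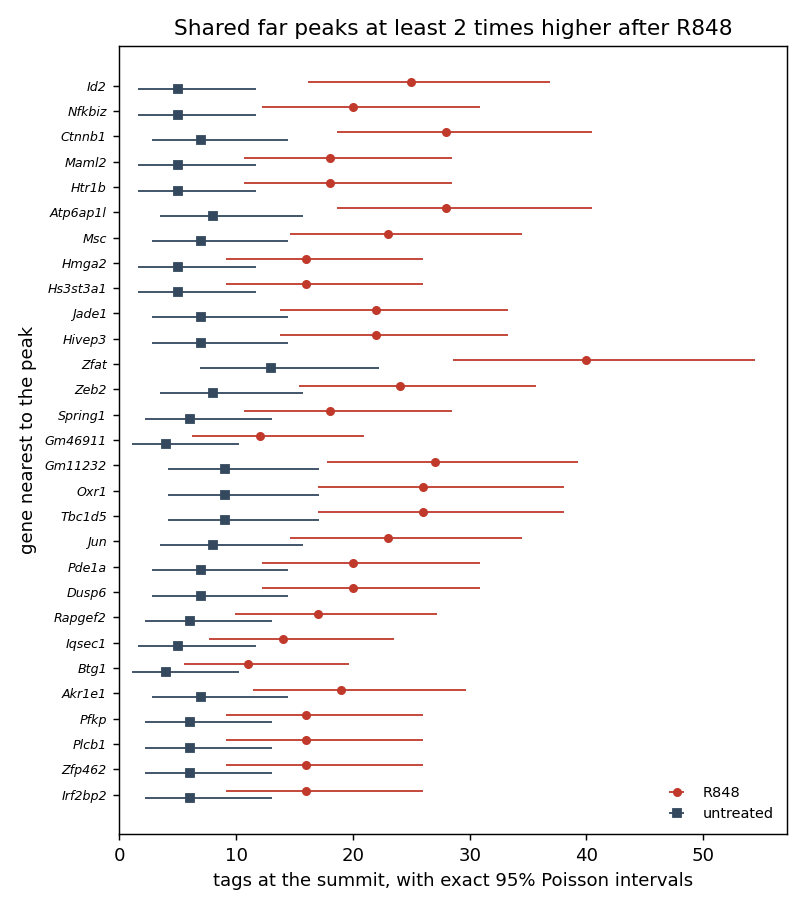
Tags at the summit (x axis) in the R848 (red circles) and untreated (dark blue squares) libraries for the 29 shared far peaks at least 2 times higher relative to the median pair, ordered by ratio and named by nearest protein-coding gene (y axis), with exact 95% Poisson intervals. R848 values run between 11 and 40 tags and untreated values between 4 and 13 tags. Each library was read at the summit of its own peak.

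At the low end were 5 peaks with the smallest ratios among those with at least 10 tags in a library. A peak 367935 bp from Arid1b, a chromatin remodelling subunit gene, held 23 R848 tags against 228 untreated tags, 0.0757 times the median pair (0.0470 to 0.116), on chromosome 17 from 4626129 to 4626558. Its untreated local background was 7.06 tags, against 1.48 tags in the R848 library. The peak 154409 bp from Gulp1, an engulfment adaptor gene, held 11 R848 tags against 51 untreated tags, a ratio of 0.162 (0.0760 to 0.314). Near Oprm1, an opioid receptor gene, 7 R848 tags stood against 30 untreated tags, near Sorcs3, a sorting receptor gene, 9 against 38, and inside the chloride channel gene Ano2 8 against 32. Their ratios lay between 0.175 and 0.188. The 631 lower peaks were spread over 440 nearest genes, and their median untreated background was 2.04 tags, against an R848 background of 1.36 tags.

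A small set of shared far peaks carried most of the tags. In 52 peaks (2.71%, 2.07 to 3.54%) the local background of either library was at least 10 times its genome-wide level, against 0.936% (0.759 to 1.15%) of nearer shared peaks. These 52 held 85.6% of all R848 summit tags of the 1917. They lay on 10 chromosomes, and 34 of them were within 1 Mb of the first or last peak of a chromosome. Their median was 1288.5 R848 tags and 2000.5 untreated tags, their log2 ratios lay between -1.47 and 0.33, and none was called higher while 31 were called lower. Without them 600 of 1865 shared far peaks (32.2%) were lower and the median log2 ratio was again -0.74.

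The largest run, with neighbouring summits within 25 kb, held 28 peaks in 38.1 kb at the start of chromosome 9 (3000167 to 3038292), at least 297.197 kb from Alkbh8, a tRNA methyltransferase gene. Its peaks held 457 to 7322 R848 tags and 897 to 9908 untreated tags. Their local background was 238 to 892 tags in the R848 library and 433 to 1455 tags in the untreated library. Their log2 ratios lay between -1.40 and -0.85, and 23 of the 28 were called lower, where 32.9% of all shared far peaks were. On the deposited folds none of the 28 was at least 2 times lower. On chromosome 2, 3 peaks between 98662230 and 98667353, beyond Lrrc4c, a synaptic adhesion gene, had up to 19160 R848 tags and 20377 untreated tags and log2 ratios between -0.50 and -0.12. Where a tract is made of repeat copies its reads cannot be placed apart, and levels there are uncertain.

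Ranked on deposited R848 fold, the leading 10 shared far peaks lay nearest Rab10 (43.8), Csf2ra (42.1), Cr2 (42.0), 2210408I21Rik (40.1), Galc (33.7), Diaph3 (32.8), Gpd2 (29.9), G6pd2 (29.3), Nxph1 (29.3) and Gm40892 (26.9). The peaks nearest Rab10, Csf2ra, Cr2, 2210408I21Rik and Galc were among the 52 with a high local background. Their R848 backgrounds were 121, 23.9, 11.6, 11.9 and 33.7 tags in that order, against 1.36 tags genome-wide, so their levels are uncertain. All 10 peaks were narrow, at 347 to 614 bp. The Csf2ra peak lay 102962 bp from that gene, which encodes a GM-CSF receptor subunit, near the end of chromosome 19 (61331196 to 61331657), with 1047 R848 tags and 1921 untreated tags. All 10 had untreated folds of 28.7 or more in their own list. Galc, with a ratio of 1.26, and G6pd2, with 1.05, were the peaks of the 10 above the median pair. On the deposited folds both were below it, at log2 ratios of -0.02 for Galc and -0.08 for G6pd2.

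**Figure D5:**
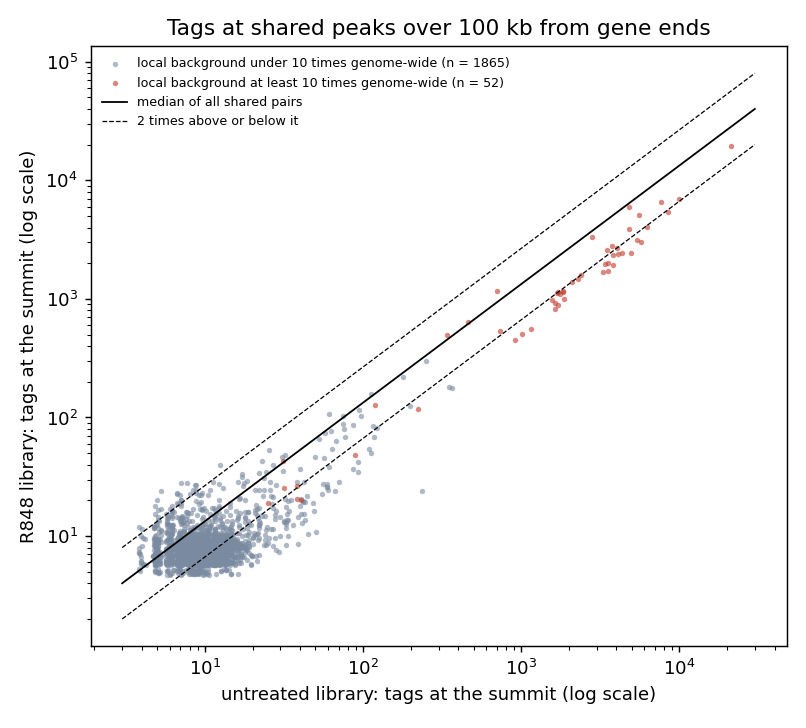
Tags at the summit of each of the 1917 shared far peaks in the untreated library (x axis, log scale) and the R848 library (y axis, log scale), with small random offsets to separate equal values. Most blue-grey points lie below the solid line of the median shared pair, and the 52 red points with a high local background reach 19160 R848 tags.

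Shared far peaks were mostly single. Of the 1917, 1457 had no other within 25 kb, and 460 fell into 194 runs, of which 167 were pairs. The run of 12 on chromosome 8 (20069503 to 20154652) lay beyond 9530057J20Rik and Gm15319, in a family of near-identical copies, with 12 to 78 R848 tags and 10 to 55 untreated tags, and is uncertain. A run of 10 on chromosome 7 (59731760 to 59779215) lay in the snoRNA array of Snhg14, the imprinted host transcript of the Prader-Willi region, beyond Snurf. Its peaks held 13 to 36 R848 tags and 15 to 31 untreated tags, and its R848 local background of 3.44 to 9.62 tags was above the genome-wide 1.36. All 14 peaks of Snhg14 had log2 ratios between -1.17 and 0.19. A run of 3 at 113 to 133 kb from Cxcr4, the gene of a chemokine receptor that retains cells in bone marrow, held 7, 15 and 8 R848 tags against 7, 8 and 5 untreated tags. This run was picked out after its values were seen.

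Immunoglobulin loci, whose segments the gene table does not list as protein-coding, supplied 16 of the peaks. In Igh, the heavy chain locus on chromosome 12, 9 peaks held 6 to 15 R848 tags and 5 to 10 untreated tags, with log2 ratios between -0.64 and 0.43. In Igk, the kappa light chain locus on chromosome 6, 7 peaks held 5 to 13 R848 tags and 7 to 19 untreated tags, with log2 ratios between -1.26 and -0.22. Called lower were 0 of 9 Igh peaks and 3 of 7 Igk peaks, where 32.9% of all shared far peaks were. Of the 242 peaks at non-coding genes, 192 were at long non-coding RNAs and 27 at pseudogenes.

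The 365 peaks inside protein-coding genes fell into 240 genes of 208 to 2271 kb, a median of 550 kb, against 17.2 kb over all protein-coding genes. The rule fixed this contrast, because only a gene over 200 kb long can hold a summit more than 100 kb from both its ends. There were 990 genes of that length. The most peaks, 6 each, were in Dpp6, a potassium channel subunit gene, Lrp1b, a lipoprotein receptor family gene, and Pcdh15, a protocadherin gene of inner ear hair cells. Dpp6 peaks held 7 to 15 R848 tags against 5 to 14 untreated tags, Lrp1b peaks 6 to 23 against 7 to 55, and Pcdh15 peaks 6 to 10 against 6 to 13. Sox6, a transcription factor gene of erythroid, cartilage and nerve cells, held 5 peaks with 5 to 11 R848 tags against 9 to 14 untreated tags. Pde4d, which encodes a cAMP phosphodiesterase, held 3 with log2 ratios of 0.07 to 0.24.

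Counted by nearest protein-coding gene, the 1917 peaks were spread over 951 genes, 525 of them with 1 peak. Most peaks had Alkbh8 (29), Cntnap5a (15), Lrrc4c (14), Snurf (14), 9530057J20Rik (11) and Olfr161 (10) as nearest gene, then Adgrl2, Csmd3, Fat3 and Reep3 with 9 each. Cntnap5a, Lrrc4c, Adgrl2, Csmd3 and Fat3 encode surface proteins known from neurons. The 15 Cntnap5a peaks held 6 to 10 R848 tags against 5 to 12 untreated tags. At Olfr161, an odorant receptor gene, 10 peaks near the start of chromosome 16 held 8 to 69 R848 tags against 5 to 62 untreated tags. Their median log2 ratio was 0.05. The 9 peaks nearest Reep3, which encodes a membrane protein of the endoplasmic reticulum, lay 145 to 936 kb away with 6 to 23 R848 tags against 4 to 18 untreated tags.

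Pfkp, the platelet-type phosphofructokinase gene of glycolysis, had 7 shared far peaks of both kinds, and was picked out after its values were seen. The peak 240.542 kb away held 16 R848 tags against 6 untreated tags, a ratio of 2.00 (0.743 to 6.24), which on the deposited folds was a log2 ratio of 0.62 and below a factor of 2. The other 6 were all called lower, where 32.9% of all shared far peaks were. The strongest of them held 11 R848 tags against 26 untreated tags, a ratio of 0.317 (0.142 to 0.665). Its deposited folds were 5.09 in the R848 list and 12.1 in the untreated list. Of the 6 it alone was still at least 2 times lower on the deposited folds.

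Neighbouring gene groups gave few macrophage genes. Of 29 macrophage identity genes, 5 were nearest to 12 shared far peaks (0.626%, 0.358 to 1.09%), against 0.740% of far R848 peaks without a partner. Zeb2, which encodes a factor needed for macrophage identity in tissues, had 6 of them, with 6 to 24 R848 tags against 5 to 8 untreated tags, and 1 was called higher. Mef2c had 2 (13 and 6 R848 tags against 6 and 7 untreated tags), and the 2 peaks near Tfec, a macrophage factor of the MiT family, held 7 R848 tags each against 12 each. The Runx1 peak inside that gene held 6 R848 tags against 10 untreated tags, and a peak near Klf4 held 13 against 8.

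Of 49 Toll-like receptor response genes, 5 were nearest to 6 peaks (0.313%, 0.144 to 0.681%), against 0.308% of far peaks without a partner. Beside the Nfkbiz peak these were 2 near Jun and 1 each near Edn1, Klf6 and Marcks. The Edn1 peak held 15 R848 tags against 17 untreated tags, the Klf6 peak 7 against 6 and the Marcks peak 7 against 15. The second Jun peak held 15 R848 tags against 6 untreated tags. Its R848 summit, at 95161400, lay outside the untreated peak (95161537 to 95161779), so these tags were read at different positions. In this list of 6 peaks, 2 were called higher and 1 lower, and the median log2 ratio was 0.36. Over all shared far peaks 1.51% were higher and 32.9% lower, with a median of -0.74. Of the 2 higher calls, the one near Jun was lost on the deposited folds. In the macrophage list 1 of 12 was called higher, also lost on the deposited folds, and 3 lower, with a median of -0.30. Of these 3 lower calls, both near Tfec were lost on the deposited folds too, and the call inside Runx1 was kept.

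Developmental transcription factor genes and neuronal genes, from longer lists, were nearest to more peaks, with shares close to those of far R848 peaks without a partner. The share of far sequence beside each list was not measured. Of 88 developmental factor genes, 43 were nearest to 82 peaks (4.28%, 3.46 to 5.28%), among them 6 at Nfib, 5 at Sox6 and 4 each at Hand2, Nr4a2, Pou3f2 and Satb1. Of the 82, 0 were called higher and 30 (36.6%) lower, a share near the 32.9% of all shared far peaks. Of 99 neuronal adhesion and synaptic genes, 84 were nearest to 299 peaks (15.6%, 14.0 to 17.3%). Of these, 0 were called higher and 93 (31.1%) lower, again near the 32.9% of all shared far peaks. Over all shared far peaks 1.51% were called higher, and a peak with fewer than 11 R848 tags could not be. Among far R848 peaks without a partner, 3.87% were nearest a developmental factor gene and 16.2% a neuronal one. Markers of other blood and tissue cells gave 0 peaks for T and NK cells and for neutrophils, 2 for B cells (Ebf1 and Bank1) and 3 for stromal and endothelial cells (Pdgfra, Cxcl12 and Cdh5). The lists share genes, and the nearest gene need not be the one a distal site acts on.

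The peaks farthest from any protein-coding gene end were 2137657 bp out, nearest Cntnap5b on chromosome 1, and 2102473 bp out, nearest Pcdh9 on chromosome 14. The first held 52 R848 tags against 25 untreated tags, a ratio of 1.56, and the second 65 against 117, a ratio of 0.417. Between them in distance was a peak nearest Cdh20 with 8 R848 tags against 7 untreated tags. Just beyond the 100 kb limit lay peaks nearest Hhat, Robo2 and Pex5l at 100497, 100507 and 100638 bp, with 6, 9 and 6 R848 tags against 14, 9 and 12 untreated tags. Just within it lay peaks nearest Cox7b2, Kdm4c and Dad1 at 99918, 99876 and 99826 bp, with 8, 8 and 7 R848 tags against 8, 8 and 9 untreated tags.

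Both lists placed these sites with limited precision. The R848 and untreated summits were a median of 92 bp apart at shared far peaks and 71 bp at nearer ones, and 52.2% of far pairs lay within 100 bp, against 63.1%. More than 1 untreated peak was overlapped by 1.72% of shared far peaks.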

How the data were processed

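Peak lists of 1 R848 and 1 untreated ATAC-seq library were used. Per the submitters' processing notes, reads were handled with bcl2fastq 2.19, Bowtie2 2.2.6 and MACS2 2.2.7.1 on mm10, and settings and depth are not given in what was used here. The deposited fold is a ratio of summit pileup to local background, the deposited −log10 p and q values are those of each summit within its library, and the deposited score was not used. No q filter was applied. The pileup was recovered as the whole number of tags that solves fold = (tags + 1)/(background + 1) and the Poisson tail, within 0.1% of −log10 p, which succeeded for 100% of peaks in each list and was tested on simulated data. Smallest pileups were 5 R848 and 4 untreated tags, and genome-wide backgrounds 1.36 R848 and 0.968 untreated tags. The untreated partner was the overlapping peak of highest fold.

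Genes were the 21887 protein-coding and 28056 other RefSeq genes of GRCm38.p6, which lists ends without strand or exons. With no genome sequence used here, the planned motif shares of peaks were not run and motifs were read in promoter windows alone. Intervals are 95% Wilson (shares) or exact (tags, ratios) and cover counting error only. Members and lists were chosen with earlier results of these data known. Named were the 10 strongest peaks, the 5 largest and 5 smallest ratios with at least 10 tags in a library, the 3 farthest, the 3 longest runs and the 10 genes with most peaks, plus macrophage and Toll-like receptor list genes. Scripts ran in Python 3.11.15 with scipy 1.17.1, pandas 2.3.3 and numpy 2.4.6, and figures were drawn in matplotlib 3.10.9. Alternatives are given in the closing section. Single results on genes withheld from the text are not reported here.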

Additional observations from a re-analysis of the deposited data

How the results depend on the processing

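No paired analysis was possible because each group had 1 library. Under all alternatives the median log2 ratio stayed below 0 and shared far peaks were called lower more often than all shared pairs. With an overlap of 50% of the shorter peak, 19.4% of far R848 peaks had a partner (18.5% nearer ones at the same strength mix), the median fold percentile was 51.3, the median log2 ratio -0.81 and the share called lower 38.4%. With a 50 kb limit there were 2778 peaks, the strength-matched share was 22.1%, the fold percentile 51.5, the number called higher 62 (2.23%) and the share inside protein-coding genes 25.8%. With a 200 kb limit there were 1195 peaks, a strength-matched share of 20.1%, 8 called higher, 35.1% lower and 12.4% inside genes. With a −log10 q of at least 2 in both lists, 485 peaks were left, and 33.8% of far peaks had a partner, against 33.1% of strength-matched nearer ones. There the median log2 ratio was -0.80, with 4 called higher, 41.9% lower, 23.7% inside genes, 14.6% at non-coding genes and 17.7% in runs. With the untreated list at the length of the R848 list the partner shares were 16.9% of far and 14.5% of strength-matched nearer peaks, the fold percentile 51.9, the median ratio -0.78 and the share in runs 21.0%. Counting genes of any type left 565 peaks, a matched share of 20.4%, 4 called higher, 37.2% lower, 28.0% inside genes and 1.24% at non-coding genes. Scaling to genome-wide background gave a median of -0.81 and 37.1% lower. Deposited folds gave -0.27, 7 higher and 7.20% lower. Gaps of 10 and 50 kb put 18.5% and 30.8% in runs. Leaving out 1 Mb at chromosome ends, taking the partner of longest overlap, or leaving out peaks of high local background or those in Igh, Igk and Snhg14 (both chosen after seeing the data) moved no summary beyond its interval. The cause was not tested beyond the fewer peaks that an alternative left. Of 44 named peaks called higher or lower, 30 were within a factor of 2 on deposited folds (7 of 29 higher and 7 of 15 lower calls were kept) and 7 with background scaling. With the q limit 9 of the 22 still present lost the call, and with the 50% overlap 6 of 43. None of the 44 changed sign under the alternatives that kept them. The uncalled peak nearest G6pd2 (0.07) went below 0 under 4 alternatives, down to -0.17, Galc under deposited folds (-0.02), and Nxph1 (-0.04) was above 0 with the shortened untreated list (0.05). With 8 R848 tags in a median peak, intervals of single ratios are wide.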

Other observations

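Shared far peaks were spread over all 19 autosomes. Per Mb of sequence beyond 100 kb from gene ends, they numbered from 1.51 on chromosome 17 and 1.53 on chromosome 11 to 2.69 on chromosome 16 and 2.70 on chromosome 9. The chromosome 9 value includes the 28 peaks of the run at its start. Most peaks, 195, lay on chromosome 1, where 39.6% of the covered sequence was that far from gene ends, and fewest, 25, on chromosome 19, where 24.9% was.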
